A study of Rattus norvegicus with 51 samples.

Results

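The genes described here bring fatty acids into the cell and burn them in mitochondria. They were chosen by name, as a list of 37 symbols of fatty acid uptake, activation, mitochondrial import and β-oxidation with their regulators, and 36 of the 37 were found by exact symbol among the 18602 genes of the array. Fabp3 was not matched and was not analysed here. The 36 fall into uptake (Cd36, Slc27a1 and Lpl), 5 acyl-CoA synthetases, 5 genes of the carnitine shuttle, 11 dehydrogenases and cycle enzymes, 3 genes of the electron transfer flavoprotein, 4 genes of uncoupling, thioester hydrolysis and malonyl-CoA turnover, and 5 regulators.

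Fatty acids reach a heart cell after lipoprotein lipase has freed them from circulating fat, and carriers such as CD36 help them across the membrane. Acyl-CoA synthetases activate them, the carnitine shuttle moves them into mitochondria, and β-oxidation shortens them step by step while the electron transfer flavoprotein passes electrons to the respiratory chain. Around birth the heart turns from glucose and lactate to fatty acids as its main fuel, under nuclear receptors such as PPARα and the oestrogen-related receptors and their coactivator PGC-1α.

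The samples were engineered tissues of neonatal rat ventricular myocytes (Sprague-Dawley) on silicone membranes carrying fibronectin that was either uniform (isotropic, iso) or micropatterned (anisotropic, aniso). RNA was taken at 0 h from isotropic unstretched tissue (6 arrays, 1 from each of 6 cell harvests), and at 6, 24 and 96 h from 5 kinds of tissue with 3 arrays each: isotropic unstretched, isotropic stretched, anisotropic unstretched, and anisotropic stretched in the longitudinal or in the transverse direction. That gives 16 groups and 51 arrays. All groups were kept in supplemented M199 medium with 10% serum for the first 48 h and 2% after that, so time and serum cannot be told apart at 96 h. The 0 h tissue had itself spent 1 h on the coating. How far and how fast the tissues were stretched, and how old the rats were, is not stated in the sources used here.

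Signal is given as log2 RMA values, where a difference of 1 is a doubling. Array medians ran from 5.31 to 5.43, and the summed signal of 12 cardiomyocyte markers lay between 15.1 and 15.7 on the log2 scale on every array. A pair of arrays stood apart from their labels on an axis that runs from anisotropic unstretched tissue at 24 h (position 0) to the same tissue at 96 h (position 1). The array labelled 24 h isotropic stretched, replicate 1, lay at 0.902 against 0.0667 and 0.0564 for the others of its group. The array labelled 96 h isotropic unstretched, replicate 1, lay at 0.216 against 1.03 and 1.01. The fold changes against 0 h that the authors deposited matched both groups only with these arrays exchanged. For the comparisons that hold this pair, counts of members are also given with the pair exchanged and with both left out. Values are given for some of the calls that changed. Counts and sums of markers are given as labelled only. The share of all genes called in a comparison, given with the members, is also the background for counts of markers and other lists. Every "adjusted p" below is limma's moderated test with Benjamini-Hochberg adjustment over 18602 genes, called at 0.05, from 1 fit of all arrays that estimates each group and each harvest. Values after ± are standard errors of the fit. In whole tissue, fewer cells of a type and less RNA per cell cannot be told apart.

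Of the 36 genes, 34 had a mean signal above the median gene of the array (5.97), and Acsl6 (5.02) and Ucp3 (5.50) lay below it. Signal is not compared between genes here, since each has its own probes.

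**Figure D1:**
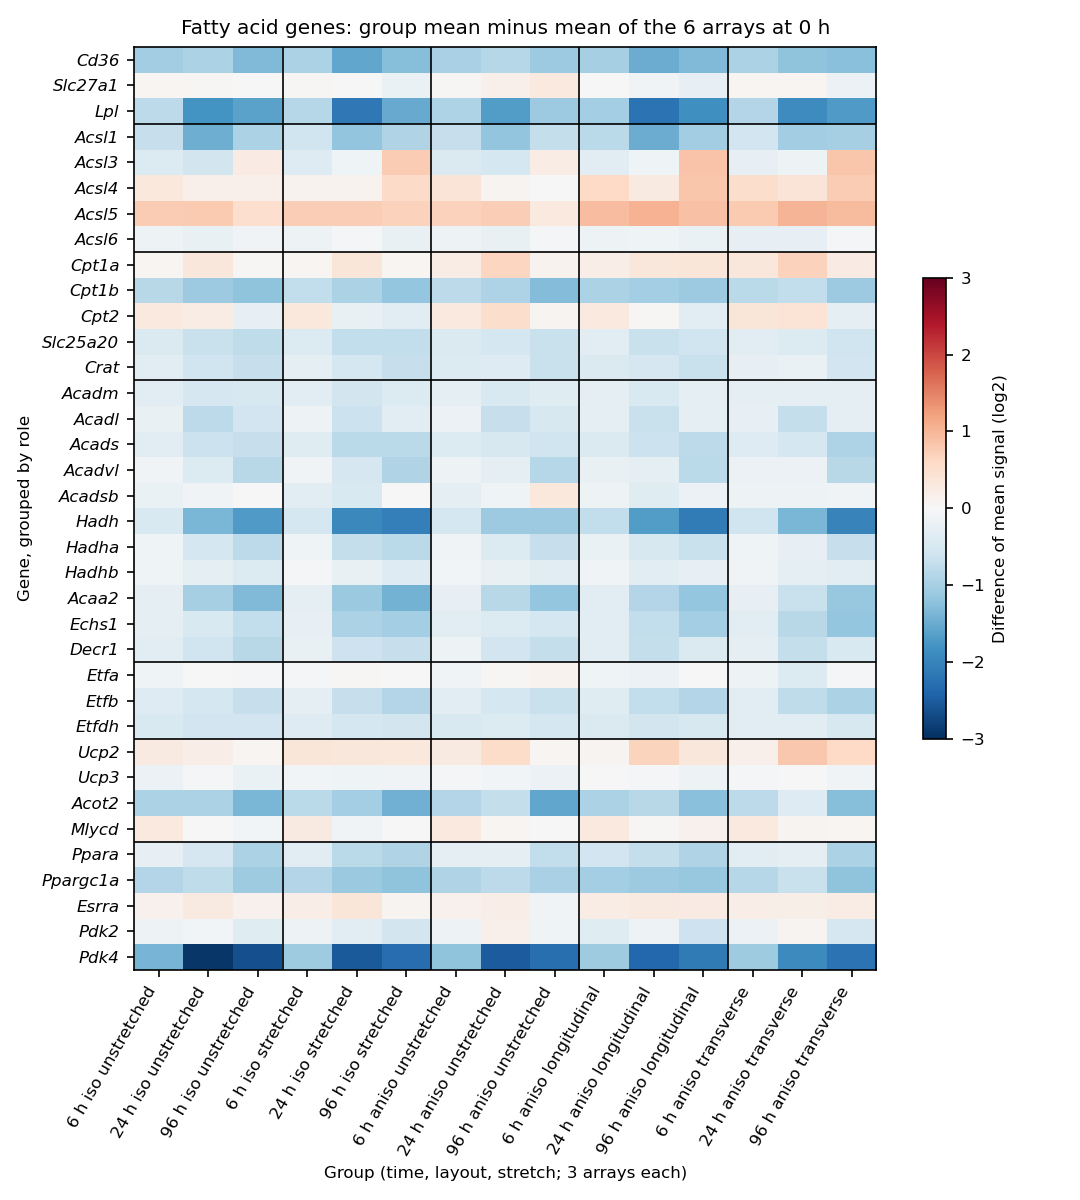
Each cell is the mean log2 signal of a group of 3 arrays minus the mean of the 6 arrays at 0 h, for 36 genes in rows, ordered by role, and 15 groups in columns. Pdk4 lies at least 1 log2 unit below its 0 h mean and Acsl5 above its 0 h mean in every later group.

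Time in culture was the comparison in which most of these genes moved. In isotropic unstretched tissue against 0 h, 15 of the 36 genes fell and 3 rose at 6 h, where 12.5% of all genes were called lower and 19.1% higher. At 24 h 24 were lower and 3 higher, against 16.1% and 20.8% of all genes. At 96 h 24 were lower and 1 higher, against 16.1% and 21.8%. The share of members called lower was thus 41.7% at 6 h and 66.7% at both later times. Their median log2 change was -0.20, -0.47 and -0.59, while the median over all genes was -0.01, 0.02 and 0.04. Altogether 13 genes were lower at all 3 times (Acads, Acot2, Acsl1, Cd36, Cpt1b, Crat, Etfb, Etfdh, Hadh, Lpl, Pdk4, Ppargc1a and Slc25a20), and 9 passed at 24 and 96 h but not at 6 h. These 3 comparisons share the 0 h arrays. With the odd pair exchanged the 96 h counts were 23 lower and 2 higher, and with both left out 21 and 3. Of all 18602 genes, 3628 were lower and 4560 higher with the pair exchanged. With both left out 3055 and 3999 were. Of the 25 members called at 96 h, 24 were also called with the pair exchanged and 22 with both left out. In that order Pdk4 changed by -2.57 and -2.66, Cd36 by -1.07 and -1.09, Acsl1 by -0.81 and -0.78, Acsl5 by 0.39 and 0.42 and Cpt1b by -1.25 and -1.30. Hadh changed by -1.63 and -1.58, Acaa2 by -1.30 and -1.38, Acot2 by -1.53 and -1.62, Ppara by -0.87 and -0.82 and Ppargc1a by -1.03 and -0.98.

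**Figure D2:**
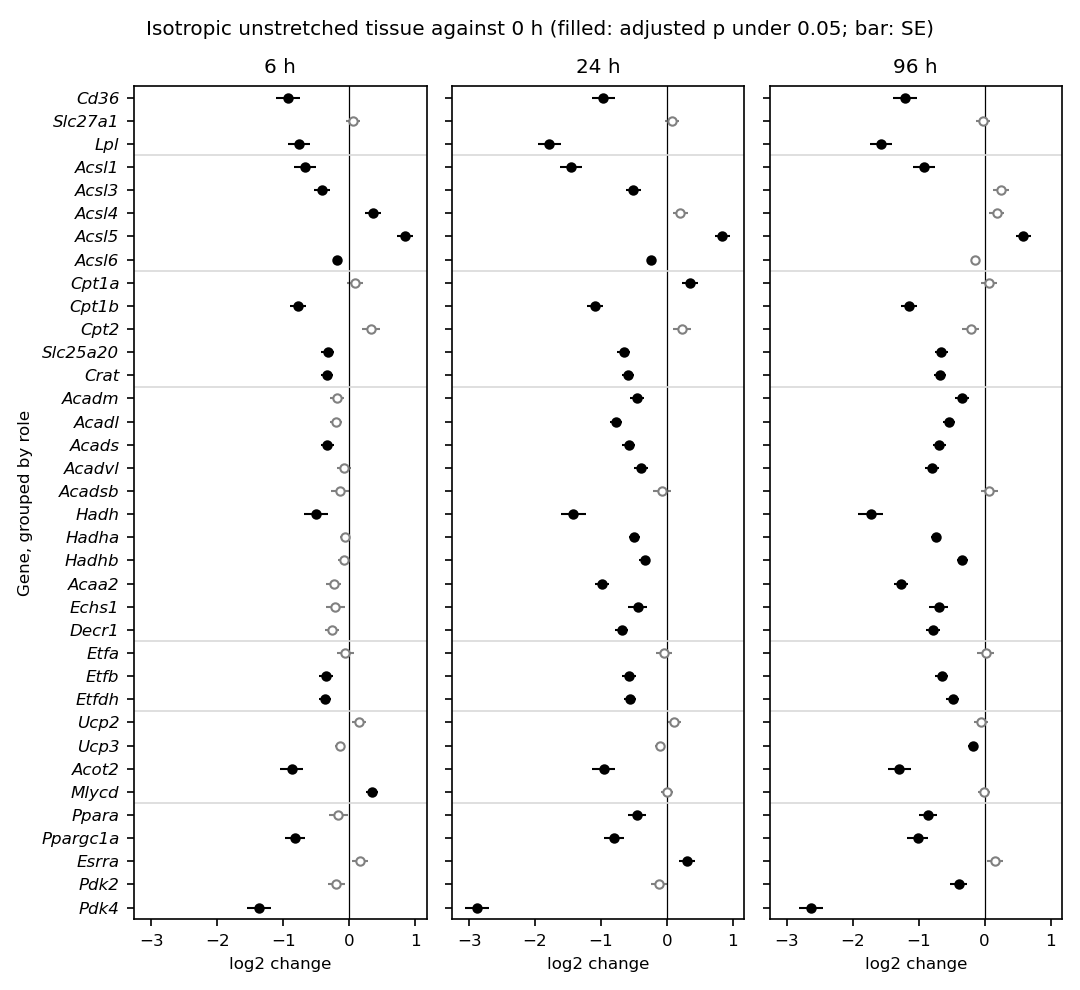
Log2 change of each of the 36 genes in isotropic unstretched tissue against 0 h at 6, 24 and 96 h, with genes ordered by role; points are limma estimates, bars are 1 SE, and filled points have an adjusted p under 0.05. Pdk4 at 24 h has the largest fall (-2.88), and Acsl5 is filled above 0 at all 3 times.

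Pdk4, the kinase that shuts pyruvate dehydrogenase and so favours fat over glucose as fuel, had the largest fall of the list at each time. Its 6 arrays at 0 h ran from 10.05 over a median of 10.17 to 10.32. The 3 replicates of isotropic unstretched tissue read 8.65, 8.84 and 8.92 at 6 h, 7.45, 6.69 and 7.64 at 24 h and 7.60, 7.48 and 7.57 at 96 h. None of the 45 arrays after 0 h reached the lowest 0 h array. Its level was 2.59-fold lower at 6 h (-1.37 ± 0.18, adjusted p = 2.82e-07), 7.35-fold lower at 24 h (-2.88 ± 0.18, adjusted p = 6.68e-15) and 6.18-fold lower at 96 h (-2.63 ± 0.18, adjusted p = 7.76e-14). Pdk2, the other kinase of the list, passed at 96 h alone (-0.39 ± 0.13, adjusted p = 0.0156), and that call was lost with the odd pair left out (-0.36 ± 0.15, adjusted p = 0.0521) or without 96 h replicate 1 or 3. The same call was also lost with no replicate block and with the block by number.

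Among the uptake genes, Lpl and Cd36 fell while Slc27a1, a fatty acid transport protein, did not pass the test. Lpl encodes the lipase that frees fatty acids from lipoproteins. Its 0 h arrays ran from 10.49 over a median of 10.59 to 10.83. In isotropic unstretched tissue it read 9.79, 9.94 and 9.75 at 6 h and 8.79, 8.78 and 8.87 at 24 h, clear of the 0 h arrays at both times. The change was -0.76 ± 0.17, -1.78 ± 0.17 and -1.57 ± 0.17 at 6, 24 and 96 h (adjusted p = 0.000592, 1.61e-10 and 2.72e-09). At 96 h replicate 1, the odd array, read 8.30 and the others 9.23 and 9.51, and with the pair left out the 96 h change was smaller (-1.25 ± 0.15, adjusted p = 2.04e-08). Cd36, the fatty acid translocase, ran from 8.76 over a median of 8.95 to 9.61 at 0 h and read 7.96, 8.19 and 7.85 at 6 h. Below every 0 h array in all 45 later arrays, it changed by -0.92 ± 0.18, adjusted p = 9.23e-05 at 6 h and by -1.21 ± 0.18, adjusted p = 1.01e-06 at 96 h. Slc27a1 changed by 0.06 ± 0.11, 0.07 ± 0.11 and -0.02 ± 0.11 at the 3 times.

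Markers of endothelium, the cells that carry lipoprotein lipase on the capillary wall, fell in the same comparison. All 7 endothelial markers measured were lower at 6, 24 and 96 h. Their summed signal ran from 10.9 to 11.6 at 0 h and from 8.63 to 8.89 at 24 h. Gpihbp1, which anchors lipoprotein lipase in capillaries, changed by -2.84 ± 0.11, adjusted p = 6.32e-21 at 24 h, and Fabp4, a fatty acid binding protein of capillary endothelium and fat cells, by -3.85 ± 0.25, adjusted p = 1.6e-14. The part of endothelial cells in the falls of Lpl and Cd36 was not tested.

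The acyl-CoA synthetases, which couple fatty acids to coenzyme A, went different ways. Acsl1, the main isoform of heart muscle, ran from 10.65 over a median of 10.68 to 10.94 at 0 h and read 9.39, 8.72 and 9.80 at 24 h. It changed by -0.67 ± 0.16, -1.45 ± 0.16 and -0.92 ± 0.16 at 6, 24 and 96 h (adjusted p = 0.00152, 5.23e-09 and 2.32e-05), and all 45 later arrays lay below the lowest 0 h array. Acsl5 rose instead. It ran from 8.40 over a median of 8.64 to 8.80 at 0 h and read 9.26, 9.33 and 9.53 at 6 h, with no overlap. The change was 0.85 ± 0.12, 0.84 ± 0.12 and 0.59 ± 0.12 (adjusted p = 7.12e-07, 5.08e-07 and 0.000142), and 43 of the 45 later arrays were above every 0 h array. Acsl4, an isoform that prefers arachidonic acid, was higher at 6 h (0.36 ± 0.12, adjusted p = 0.0155), a call lost without 6 h replicate 1 or 2, with no replicate block, with the block by number and after repeated quantile normalization, and it did not pass later. Acsl3, an isoform of the endoplasmic reticulum and lipid droplets, was lower at 6 h (-0.41 ± 0.12, adjusted p = 0.00792) and 24 h (-0.51 ± 0.12, adjusted p = 0.000798), the first of these calls being lost without 6 h replicate 2. At 96 h its change was 0.25 ± 0.12, adjusted p = 0.107, and it was called higher with the odd pair exchanged (0.34 ± 0.11, adjusted p = 0.00882) or left out (0.46 ± 0.12, adjusted p = 0.00208). Acsl6, at the dim end of the array, was lower at 6 h (-0.18 ± 0.06, adjusted p = 0.0202) and 24 h (-0.24 ± 0.06, adjusted p = 0.0017). Its 6 h call was lost without 6 h replicate 1 or 3, with no replicate block, with the block by number and after repeated quantile normalization.

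Because these isoforms differed, the 250 bases before the start of 4 of them are shown, 5′ to 3′ on the strand of the gene, from RefSeq (build GRCr8), with each CG dinucleotide in capitals. Acsl1 lies at chr16:52532393-52532642 on the minus strand and its window holds 1 CG. Acsl5 lies at chr1:264294601-264294850 on the plus strand, with 4. Acsl3 lies at chr9:87563351-87563600 on the plus strand, with 31, and Acsl4 at chrX:110803262-110803511 on the minus strand, with 28. A window was found for 31 of the 36 genes and held from 1 to 31 CG with a median of 13, where the median over 27457 promoters was 6. These 4 were picked after their expression values and CG counts were seen. The window of Acsl6, the remaining synthetase, holds 2 CG and is not shown. A link between CG count and expression was not tested.
Acsl1: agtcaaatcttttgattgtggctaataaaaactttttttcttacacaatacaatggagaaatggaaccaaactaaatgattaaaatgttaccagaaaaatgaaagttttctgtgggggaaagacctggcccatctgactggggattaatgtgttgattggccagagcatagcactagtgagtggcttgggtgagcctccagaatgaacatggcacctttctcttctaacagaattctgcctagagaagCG
Acsl5: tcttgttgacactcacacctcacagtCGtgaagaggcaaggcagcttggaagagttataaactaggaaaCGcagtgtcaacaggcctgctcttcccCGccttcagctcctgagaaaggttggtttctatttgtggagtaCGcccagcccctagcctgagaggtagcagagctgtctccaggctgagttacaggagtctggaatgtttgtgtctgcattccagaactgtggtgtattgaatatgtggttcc
Acsl3: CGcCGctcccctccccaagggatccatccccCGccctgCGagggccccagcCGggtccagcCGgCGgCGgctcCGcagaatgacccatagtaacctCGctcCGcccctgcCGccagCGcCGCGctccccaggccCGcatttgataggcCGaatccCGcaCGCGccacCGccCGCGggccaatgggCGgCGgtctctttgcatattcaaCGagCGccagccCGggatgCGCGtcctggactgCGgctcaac
Acsl4: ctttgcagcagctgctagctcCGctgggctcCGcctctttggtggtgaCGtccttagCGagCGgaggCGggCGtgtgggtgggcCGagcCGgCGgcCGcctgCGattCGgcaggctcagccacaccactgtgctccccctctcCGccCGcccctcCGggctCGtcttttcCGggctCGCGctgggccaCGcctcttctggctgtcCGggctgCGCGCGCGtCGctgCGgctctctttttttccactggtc

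Motifs bound by nuclear receptors were searched on both strands of these windows. TNAAGGTCA, the extended site of oestrogen-related receptors, was found in 0 of the 31 members' windows and in 1.00% of all 27457. A pair of AGGTCA copies with 1 base between them, the form bound by PPAR with RXR, was found in 0 of the 31 and in 0.0546% of all. A single AGGTCA, which both of these contain and which was searched after those results, was present in 4 of the 31 (12.9%, in Acadvl, Echs1, Slc27a1 and Ucp3) and in 13.7% of all. These counts say only which letters lie in these windows.

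In the carnitine shuttle the muscle form fell and the liver form did not. Cpt1b is the muscle form of carnitine palmitoyltransferase 1, the gate for import, and Cpt1a is the form of liver and of the immature heart. Cpt1b ran from 10.59 over a median of 10.69 to 10.89 at 0 h and read 9.94, 9.87 and 9.83 at 6 h. Below every 0 h array in all 45 later arrays, it changed by -0.77 ± 0.12, -1.09 ± 0.12 and -1.15 ± 0.12 at the 3 times (adjusted p = 4.96e-06, 5.43e-09 and 1.91e-09). Cpt1a ran from 8.38 over a median of 8.54 to 8.63 at 0 h and read 9.07, 8.36 and 9.17 at 24 h, so replicate 2 was below the 0 h range and the others above it. Its change at 24 h was 0.35 ± 0.12, adjusted p = 0.0201. That call was lost without replicate 1 or replicate 3 of 24 h, with no replicate block and with the block by number. At 6 and 96 h Cpt1a changed by 0.09 ± 0.12 and 0.07 ± 0.12. Slc25a20, the carnitine-acylcarnitine carrier, and Crat, carnitine acetyltransferase, fell at all 3 times, with -0.65 ± 0.10, adjusted p = 8.85e-07 and -0.59 ± 0.09, adjusted p = 8.82e-07 at 24 h. The 6 h call of Slc25a20 was lost without 6 h replicate 1 or 3 and with the block by number. Cpt2, which remakes acyl-CoA inside the mitochondrion, changed by 0.33 ± 0.13, 0.23 ± 0.13 and -0.21 ± 0.13 and passed at no time.

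**Figure D3:**
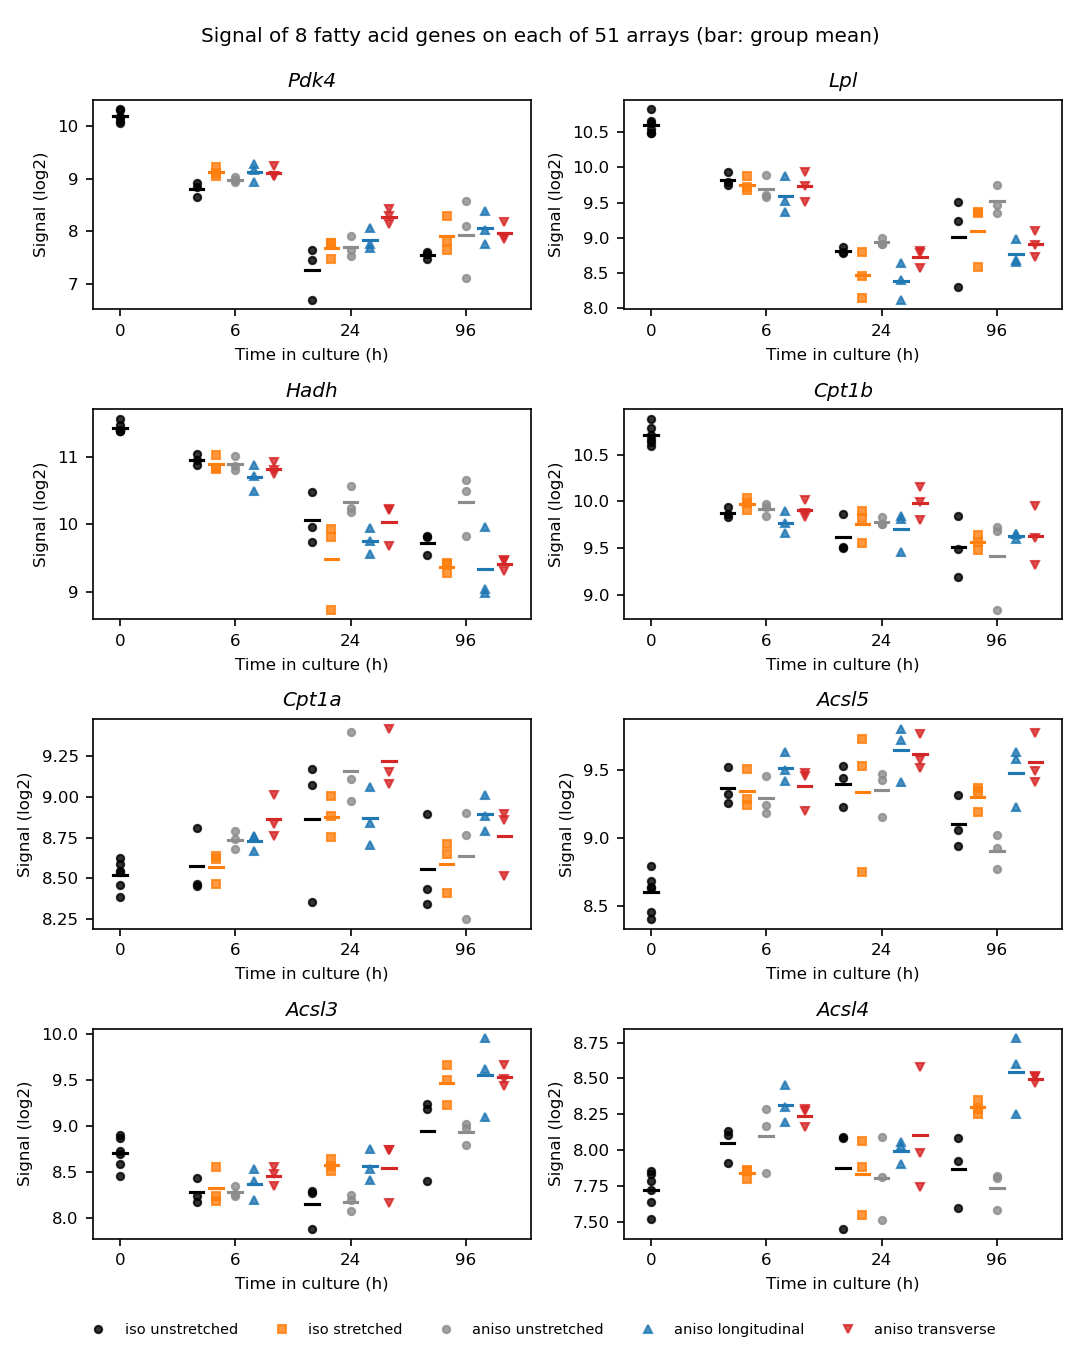
Log2 signal of 8 genes on each of the 51 arrays (points) by time in culture, with 5 symbols for layout and stretch and a bar at each group mean; the vertical axes differ between panels. Every point after 0 h lies below the 0 h points for Pdk4, Lpl, Hadh and Cpt1b, and at 96 h Acsl3 and Acsl4 are higher in stretched than in unstretched anisotropic tissue.

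Of the 11 dehydrogenases and cycle enzymes, 10 were lower at 24 h and at 96 h, and Acadsb, which acts on branched short chains, passed at none of the 3 times as labelled. With the odd pair left out Acadsb was called higher at 96 h (0.30 ± 0.11, adjusted p = 0.0247), and with the pair exchanged it was not (0.20 ± 0.10, adjusted p = 0.111). Hadh, the 3-hydroxyacyl-CoA dehydrogenase for medium and short chains, fell furthest. It ran from 11.37 over a median of 11.39 to 11.56 at 0 h and read 10.95, 11.03 and 10.88 at 6 h. It read 10.48, 9.74 and 9.96 at 24 h and 9.55, 9.81 and 9.83 at 96 h. Each of these groups lay clear of the 0 h arrays, and the change was -0.51 ± 0.19, -1.42 ± 0.18 and -1.73 ± 0.19 (adjusted p = 0.0339, 9.53e-08 and 1.84e-09). The 6 h call was lost in 5 of the 9 fits that left out an array (0 h replicate 2, 5 or 6, or 6 h replicate 1 or 3). It was also lost with no replicate block and with the block by number. Acaa2, the mitochondrial thiolase, ran from 11.14 over a median of 11.30 to 11.55 at 0 h and read 10.39, 10.18 and 10.36 at 24 h. Its change was -0.24 ± 0.11, -0.99 ± 0.11 and -1.27 ± 0.11 at 6, 24 and 96 h (adjusted p = 0.116, 6.89e-09 and 2.81e-11).

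The acyl-CoA dehydrogenases, which take the first step for each chain length, had smaller falls. At 96 h the very long-chain enzyme Acadvl changed by -0.80 ± 0.11, adjusted p = 3.26e-07, the short-chain enzyme Acads by -0.69 ± 0.10, adjusted p = 7.44e-07 and the long-chain enzyme Acadl by -0.54 ± 0.09, adjusted p = 1.24e-05. The medium-chain enzyme Acadm changed by -0.35 ± 0.11, adjusted p = 0.0117, a call lost with the odd pair left out (-0.25 ± 0.13, adjusted p = 0.123). The Acadm call was also lost without 96 h replicate 1 and with the block by number. Decr1, the reductase needed for unsaturated fatty acids, changed by -0.78 ± 0.11, adjusted p = 1.77e-07, and Echs1, the short-chain enoyl-CoA hydratase, by -0.70 ± 0.14, adjusted p = 0.000144.

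Hadha and Hadhb encode the α and β subunits of the mitochondrial trifunctional protein. In the reference their starts face away from each other with 300 bases between them, and the 250 bases before Hadha, at chr6:31907551-31907800 on the plus strand, are shown with each CG in capitals because both genes read out from this stretch.
Hadha: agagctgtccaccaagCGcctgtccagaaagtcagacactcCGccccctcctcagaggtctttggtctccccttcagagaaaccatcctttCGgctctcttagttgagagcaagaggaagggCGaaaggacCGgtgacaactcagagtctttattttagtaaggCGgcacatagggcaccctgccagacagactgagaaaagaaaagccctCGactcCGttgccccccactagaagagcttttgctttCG
Hadha ran from 11.54 over a median of 11.62 to 11.87 at 0 h and read 10.88, 10.79 and 10.91 at 96 h, without overlap (-0.74 ± 0.08, adjusted p = 1.68e-09). The dimmer of its 2 probe sets changed by -0.72 ± 0.09. Hadhb changed by -0.34 ± 0.09, adjusted p = 0.00189. Both subunits fell, and the difference between their changes was not tested.

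In the electron transfer flavoprotein system, Etfb and Etfdh, the β subunit and the dehydrogenase that takes its electrons, changed by -0.58 ± 0.10, adjusted p = 2.46e-05 and -0.55 ± 0.09, adjusted p = 7.37e-06 at 24 h. Etfa, the α subunit, passed at no time, with -0.06 ± 0.13, -0.04 ± 0.13 and 0.02 ± 0.13. Beside them, 25 respiratory chain and citric acid cycle genes were measured, and 0 were called at 6 h. At 24 h 15 were lower and at 96 h 21, against 16.1% of all genes at each of these times. Their falls were small: Cs, citrate synthase, changed by -0.37 ± 0.06 at 24 h and Ndufa9, of complex I, by -0.42 ± 0.06 at 96 h.

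Acot2, a mitochondrial thioesterase that releases fatty acid from acyl-CoA, ran from 9.45 over a median of 9.79 to 10.07 at 0 h and read 8.80, 8.94 and 8.74 at 6 h, below all 0 h arrays. It changed by -0.87 ± 0.18, adjusted p = 0.000164 at 6 h and -1.29 ± 0.18, adjusted p = 2.51e-07 at 96 h. Mlycd, which breaks down the import inhibitor malonyl-CoA, ran from 7.50 over a median of 7.69 to 7.87 at 0 h and read 7.98, 7.97 and 7.97 at 6 h. All its 6 h arrays lay above the 0 h arrays (0.34 ± 0.09, adjusted p = 0.00266), and it did not pass at 24 or 96 h. Ucp2, an uncoupling protein homologue of many cell types, changed by 0.16 ± 0.11, 0.11 ± 0.11 and -0.06 ± 0.11, and Ucp3, its muscle relative, by -0.15 ± 0.07, -0.11 ± 0.07 and -0.18 ± 0.07. The 96 h value of Ucp3 (adjusted p = 0.0491) was lost with the odd pair exchanged or left out and without any 1 of 7 arrays: 0 h replicate 1, 2, 3, 5 or 6, or 96 h replicate 1 or 2. It was also lost with no replicate block and with the block by number.

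The regulators did not move alike. Ppargc1a encodes the coactivator PGC-1α. It ran from 7.76 over a median of 7.96 to 8.28 at 0 h and read 7.39, 7.0 and 7.0 at 6 h and 7.05, 6.90 and 7.83 at 24 h, where replicate 3 lay inside the 0 h range. The change was -0.82 ± 0.15, -0.81 ± 0.15 and -1.02 ± 0.15 at the 3 times (adjusted p = 5.23e-05, 4.88e-05 and 1.42e-06). Ppara, the receptor that fatty acids activate, ran from 6.91 over a median of 7.15 to 7.52 at 0 h and read 6.24, 6.07 and 6.36 at 96 h, below all of them. It changed by -0.16 ± 0.14, -0.45 ± 0.14 and -0.86 ± 0.14 (adjusted p = 0.434, 0.00894 and 5.41e-06). The 24 h call of Ppara was lost without 24 h replicate 2 and with the block by number. Esrra, the oestrogen-related receptor α, was called higher at 24 h (0.31 ± 0.12, adjusted p = 0.0412), a call lost without any 1 of 6 arrays: 0 h replicate 1, 2, 3 or 4, or 24 h replicate 2 or 3. That call was also lost with no replicate block, a random block, the block by number and repeated quantile normalization.

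Markers of muscle and of other cells moved in the same comparison. Of 12 cardiomyocyte markers, 1 was lower at 6 h, 10 at 24 h and 8 at 96 h, when 1 was higher. Fibroblast markers were lower for 7, 4 and 4 of 10 and higher for 1, 2 and 1 at these times. Macrophage markers were lower for 5, 1 and 3 of 10 and higher for 0, 0 and 1. The summed fibroblast signal ran from 13.4 to 14.2 at 0 h, and at 96 h from 12.9 to 14.5 with a median of 14.5. That of macrophages ran from 9.78 to 10.4 with a median of 10.1, and at 96 h from 9.9 to 10.5 with a median of 10.5. For both lists the median and the highest 96 h array lay above every 0 h array. The 96 h group holds the odd array, and these sums are as labelled. The summed cardiomyocyte signal ran from 15.3 to 15.4 at 24 h and from 15.3 to 15.5 at 96 h, after a lowest 0 h array of 15.7. The part of cell makeup in the falls of the fatty acid genes was not tested.

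Other genes of the pathway, from lists made for this purpose, were called in both directions in the same comparison. Of 21 other oxidation enzymes, 8 were lower and 4 higher at 24 h, and 11 lower and 2 higher at 96 h. Of all genes 16.1% were lower and 20.8% higher at 24 h, and 16.1% and 21.8% at 96 h. Acat1, the mitochondrial acetoacetyl-CoA thiolase, changed by -1.14 ± 0.12, adjusted p = 3e-09 at 96 h, and Crot, the peroxisomal carnitine octanoyltransferase, by 1.07 ± 0.10, adjusted p = 2.22e-10 at 24 h. Bdh1, the 3-hydroxybutyrate dehydrogenase of ketone body use, changed by 1.68 ± 0.15, adjusted p = 3.42e-11 at 24 h. Of 6 genes of fatty acid synthesis, 4 were higher and 1 lower at 96 h, with Me1, the cytosolic malic enzyme that supplies NADPH, at 2.60 ± 0.11, adjusted p = 1.67e-19.

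Anisotropic unstretched tissue, which has no 0 h group of its own, showed the time course in steps. From 6 to 24 h 8 of the 36 genes fell and 1 rose, where 6.44% of all genes were called lower and 7.09% higher. Pdk4 read 8.94, 9.04 and 8.96 at 6 h and 7.53, 7.64 and 7.91 at 24 h (-1.32 ± 0.21, adjusted p = 2.57e-05). Lpl read 9.60, 9.89 and 9.58 and then 8.91, 8.90 and 9.0 (-0.82 ± 0.20, adjusted p = 0.00358). Neither gene's groups overlapped. Hadh, Acaa2, Acadl, Acsl1, Decr1 and Hadha changed by between -0.67 and -0.32, and Cpt1a rose (0.41 ± 0.14, adjusted p = 0.0411). Without 6 h replicate 2 or 24 h replicate 3 the count was 5 in place of 9. Pdk4, Lpl, Acaa2 and Acadl passed under every alternative and with each array of these groups left out. Of the markers, 6 of 12 for cardiomyocytes and 6 of 7 for endothelium were also lower, 4 of 10 for macrophages and 2 of 10 for fibroblasts were higher, and 1 for fibroblasts, 1 of 5 erythroid and 1 of 7 smooth muscle markers were lower. Their part was not tested.

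From 24 to 96 h 7 genes fell and 3 rose, against 7.74% and 6.61% of all genes. Acsl3 rose from 8.19, 8.08 and 8.25 to 8.79, 8.98 and 9.02, without overlap (0.72 ± 0.14, adjusted p = 0.000499). Of the 10 calls it alone passed under every alternative and with each array of these groups left out. Lpl read 9.47, 9.35 and 9.75 at 96 h, above its 24 h arrays (0.59 ± 0.20, adjusted p = 0.0372), and Acadsb changed by 0.48 ± 0.15, adjusted p = 0.0298. Cpt1a fell back from 9.11, 8.97 and 9.40 to 8.77, 8.25 and 8.90 (-0.49 ± 0.14, adjusted p = 0.0134). Lower calls were also made for Acot2 (-0.74 ± 0.20), Acadvl (-0.56 ± 0.13), Ucp2 (-0.51 ± 0.12), Acsl5 (-0.41 ± 0.14), Crat (-0.28 ± 0.10) and Hadha (-0.28 ± 0.09), though the dimmer Hadha probe set did not pass. The count of 10 was 4 without 24 h replicate 2 or 96 h replicate 2, and 5 without 24 h replicate 1. Fibroblast markers were higher for 5 of 10 and macrophage markers for 3 of 10, and 4 of 7 endothelial markers were lower. Smooth muscle markers were higher for 3 of 7 (sums from 12.1 to 12.3 and then from 12.9 to 13.1) and cardiomyocyte markers for 3 of 12. Erythroid markers were lower for 3 of 5 (sums from 12.9 to 13.2 and then from 7.95 to 8.12). The part of these markers was not tested.

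At 6 h no fatty acid gene passed the test under any stretch, and few genes of any kind did. Isotropic stretch called 0.00538% of all genes, longitudinal stretch 0.0968% and transverse stretch 0%. At an unadjusted p under 0.05 there were 0, 2 and 0 of the 36, against 359, 927 and 575 of all 18602 genes. Pdk4 read 9.04, 9.10 and 9.23 in stretched and 8.65, 8.84 and 8.92 in unstretched isotropic tissue; the groups did not overlap, and the change of 0.32 ± 0.20, adjusted p = 1 did not pass.

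At 24 h stretch called none of the 36 genes in the data as labelled, against 3.93% of all genes in isotropic tissue, 2.23% under longitudinal and 1.46% under transverse stretch. At an unadjusted p under 0.05 the counts were 8, 9 and 5 of 36, against 3011, 2424 and 2548 of all 18602 genes. The isotropic comparison holds one of the odd arrays and changed with it. With the pair exchanged 6 genes were lower: Cd36 (-0.74 ± 0.18, adjusted p = 0.00559), Hadh (-0.65 ± 0.19, adjusted p = 0.0295), Echs1 (-0.60 ± 0.14, adjusted p = 0.00496), Cpt2 (-0.52 ± 0.14, adjusted p = 0.0198), Lpl (-0.51 ± 0.15, adjusted p = 0.0237) and Acadsb (-0.49 ± 0.11, adjusted p = 0.00409). With both left out Cd36, Acadsb, Echs1 and Lpl were lower. Calls rose over all genes too: of 18602, 549 were lower as labelled, 943 with the pair exchanged and 824 with both left out. As labelled, none of the 6 passed: Cd36 changed by -0.61 ± 0.20, adjusted p = 0.0774, Hadh by -0.56 ± 0.21, adjusted p = 0.13 and Lpl by -0.35 ± 0.19, adjusted p = 0.38. Cd36 read 7.99, 6.61 and 7.85 with stretch and 8.24, 7.98 and 8.07 without, so the size of its difference rests mostly on stretched replicate 2. The count as labelled was 3 without stretched replicate 1, 4 without stretched replicate 3 and 1 without unstretched replicate 3.

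In anisotropic tissue at 24 h no difference passed. Under longitudinal stretch Cd36 read 7.55, 7.68 and 7.43 against 8.39, 8.06 and 8.04 without stretch (-0.56 ± 0.20, adjusted p = 0.166), and Lpl read 8.64, 8.39 and 8.12 against 8.91, 8.90 and 9.0 (-0.56 ± 0.20, adjusted p = 0.137). The groups did not overlap for either gene. Under transverse stretch they changed by -0.42 ± 0.22 and -0.25 ± 0.21, and Ucp2 came closest to a call (0.48 ± 0.13, adjusted p = 0.0501). Under isotropic, longitudinal and transverse stretch 3, 1 and 1 of 7 endothelial markers and 4, 3 and 2 of 10 fibroblast markers were lower. Macrophage markers were lower for 3, 2 and 0 of 10, and smooth muscle markers higher for 1, 2 and 0 of 7. In the isotropic comparison, whose stretched group holds an odd array, 3 of 12 cardiomyocyte and 1 of 5 erythroid markers were also lower. Erythroid sums there ran from 8.01 over a median of 11.3 to 11.9 with stretch and from 12.8 to 12.9 without. In the 96 h isotropic unstretched group, which holds the other odd array, they ran from 7.92 over a median of 8.11 to 12.2. Fibroblast sums in isotropic tissue at 24 h ran from 12.3 over a median of 12.6 to 14.3 with stretch and from 12.9 to 13.4 without. The part of these markers in the 24 h values was not tested.

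**Figure D4:**
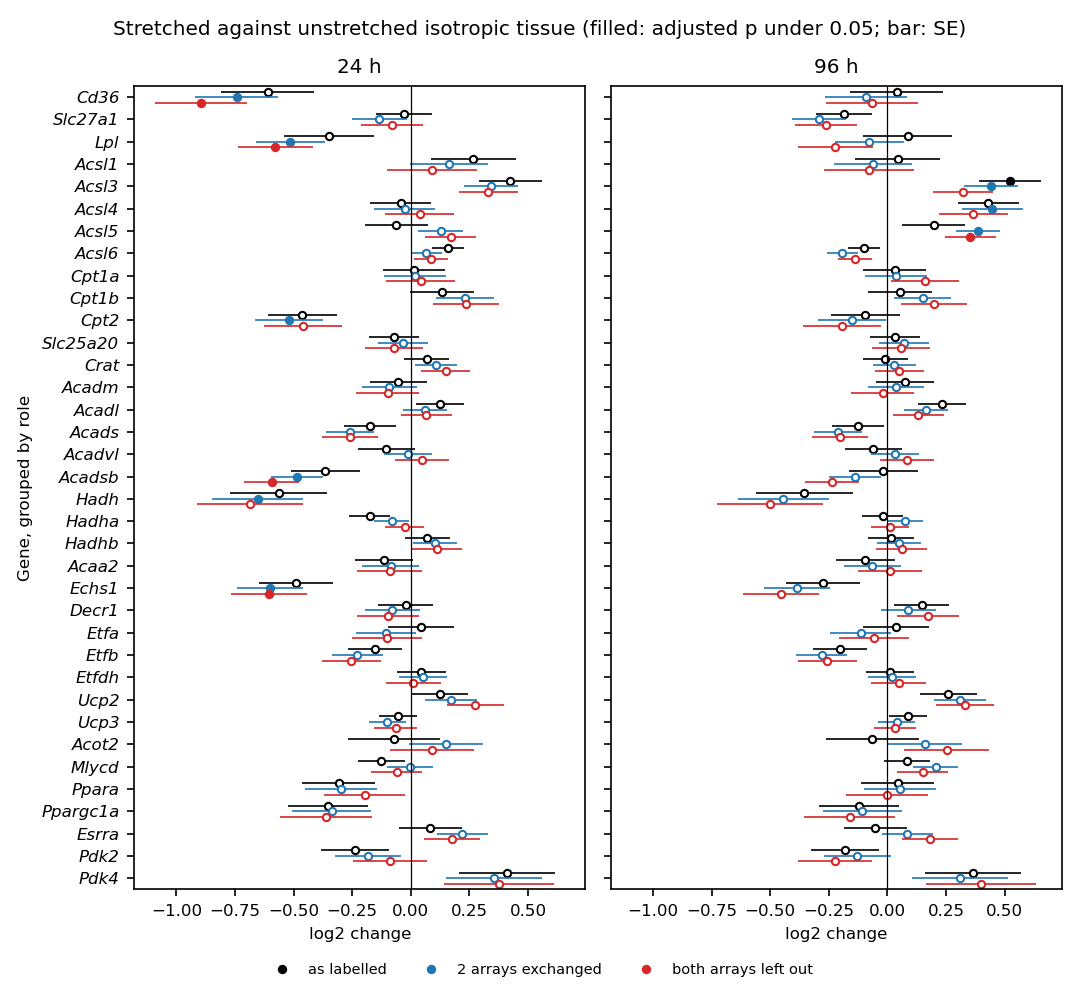
Log2 change of the 36 genes with stretch in isotropic tissue at 24 h and 96 h, as labelled, with the pair of odd arrays exchanged and with both left out; points are limma estimates, bars are 1 SE, and filled points have an adjusted p under 0.05. At 24 h no point is filled as labelled, while 6 are with the pair exchanged and 4 with both left out, all below 0.

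By 96 h stretch of anisotropic tissue had changed a small set of these genes. Longitudinal stretch raised 4 and lowered 4 of the 36, where 4.31% of all genes were called higher and 5.39% lower. Transverse stretch raised 4 and lowered 6, against 6.39% and 8.65%. The median change of the list was -0.03 and -0.02. Both comparisons use the same 3 unstretched arrays, so the genes they have in common are not independent support and their values are set side by side. Longitudinal and unstretched arrays at 96 h have 1 harvest in common, and transverse and unstretched arrays have 2.

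Acyl-CoA synthetases made up 3 of the 4 rises in each. Acsl4 read 7.58, 7.82 and 7.80 in unstretched tissue, 8.25, 8.78 and 8.60 under longitudinal and 8.51, 8.47 and 8.51 under transverse stretch. No stretched array overlapped the unstretched ones, and the changes were 0.80 ± 0.14, adjusted p = 0.000281, and 0.77 ± 0.13, adjusted p = 0.000104. Acsl3 read 8.79, 8.98 and 9.02 without stretch, 9.09, 9.95 and 9.62 with longitudinal and 9.44, 9.51 and 9.66 with transverse stretch (0.68 ± 0.15, adjusted p = 0.00214, and 0.64 ± 0.14, adjusted p = 0.00112). Acsl5 read 8.77, 9.02 and 8.93 against 9.23, 9.63 and 9.59 and against 9.50, 9.41 and 9.78 (0.51 ± 0.15, adjusted p = 0.0208, and 0.62 ± 0.14, adjusted p = 0.00167). All stretched arrays of these 3 genes were above the unstretched ones. Acsl1 did not pass, at -0.35 ± 0.20, adjusted p = 0.316, and -0.31 ± 0.19, adjusted p = 0.292. Ucp2 read 10.56, 10.23 and 10.62 without stretch, 11.13, 10.59 and 10.53 under longitudinal stretch, where the groups overlapped, and 11.08, 10.90 and 11.09 under transverse stretch, where they did not. It changed by 0.44 ± 0.13, adjusted p = 0.0255, and 0.57 ± 0.12, adjusted p = 0.00115. The longitudinal call of Ucp2 was lost with no replicate block, a random block and the block by number. It was also lost without unstretched or longitudinal replicate 1 or 2.

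**Figure D5:**
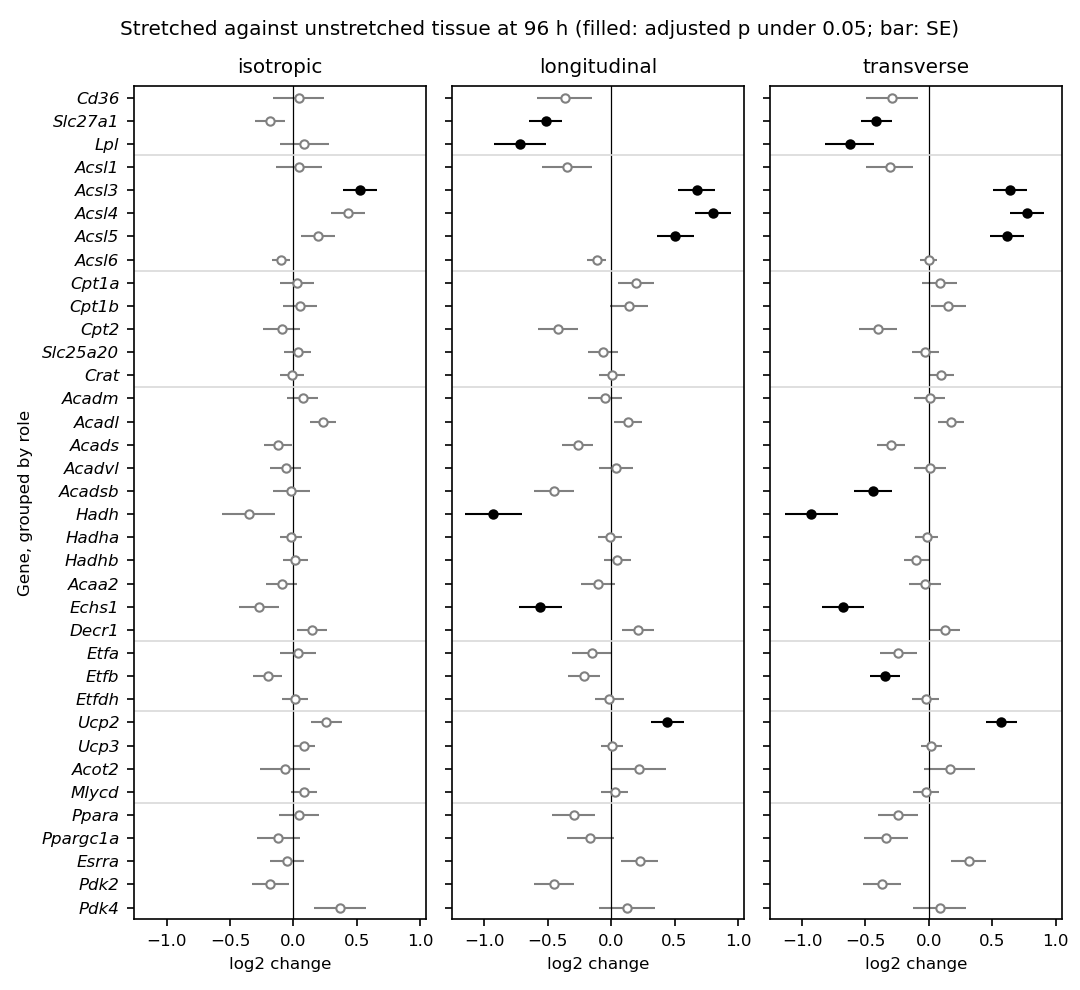
Log2 change of the 36 genes between stretched and unstretched tissue at 96 h for isotropic, longitudinal and transverse stretch; points are limma estimates, bars are 1 SE, and filled points have an adjusted p under 0.05. Acsl3 is filled for all 3, and Hadh at -0.93 has the largest fall in both anisotropic comparisons, which share their unstretched arrays.

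Hadh, Echs1, Lpl and Slc27a1 were lower under both, and Acadsb and Etfb under transverse stretch. Hadh read 10.49, 9.83 and 10.66 without stretch, 9.97, 8.99 and 9.05 under longitudinal and 9.31, 9.45 and 9.48 under transverse stretch. The longitudinal group overlapped the unstretched one and the transverse group did not (-0.93 ± 0.22, adjusted p = 0.00586, and -0.93 ± 0.21, adjusted p = 0.00206). Echs1, which acts in the step before it, changed by -0.56 ± 0.17, adjusted p = 0.0327, and -0.68 ± 0.16, adjusted p = 0.00321. The longitudinal call of Echs1 was lost with no replicate block and with the block by number. It was also lost without unstretched replicate 1 or 3 or longitudinal replicate 2 or 3. The transverse call was lost without transverse replicate 1. Lpl read 9.47, 9.35 and 9.75 without stretch, 8.69, 8.66 and 8.98 with longitudinal and 8.72, 9.10 and 8.90 with transverse stretch, with no overlap in either comparison (-0.72 ± 0.21, adjusted p = 0.0218, and -0.63 ± 0.20, adjusted p = 0.0254). Slc27a1 changed by -0.52 ± 0.13, adjusted p = 0.00839, and -0.42 ± 0.12, adjusted p = 0.0174. Acadsb and Etfb passed under transverse stretch (-0.44 ± 0.15, adjusted p = 0.0418, and -0.34 ± 0.12, adjusted p = 0.0459) and changed by -0.45 ± 0.16 and -0.21 ± 0.13 under longitudinal stretch, which did not pass. Both transverse calls were lost with no replicate block, a random block and the block by number. They were also lost without replicate 1 or 3 of either group. That of Acadsb was lost without unstretched replicate 2 and after repeated quantile normalization too.

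Several genes that had fallen far in culture did not pass at 96 h. Under longitudinal and transverse stretch Pdk4 changed by 0.13 ± 0.22 and 0.08 ± 0.21, Cpt1b by 0.14 ± 0.15 and 0.15 ± 0.14 and Cd36 by -0.36 ± 0.22 and -0.29 ± 0.20. Of the regulators, Ppara changed by -0.30 ± 0.17 and -0.24 ± 0.16, Ppargc1a by -0.16 ± 0.19 and -0.34 ± 0.17 and Esrra by 0.22 ± 0.15 and 0.31 ± 0.14. Cpt1a changed by 0.20 ± 0.15 and 0.08 ± 0.14 and Ucp3 by 0.01 ± 0.09 and 0.02 ± 0.08.

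Single arrays carried part of these 96 h counts. The longitudinal count of 8 was 4 without unstretched replicate 1, 3 without unstretched replicate 3, 4 without longitudinal replicate 2 and 5 without longitudinal replicate 3. The transverse count of 10 was 6 without unstretched replicate 3 and 5 without transverse replicate 1. Acsl3 and Acsl4 passed under every alternative and with each array of these groups left out in both comparisons. Acsl5, Hadh and Ucp2 did so under transverse stretch. Each of the other calls was lost without at least 1 of these arrays.

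Markers of other cells moved in these comparisons too. Macrophage markers were lower for 9 of 10 under either stretch, and their sum ran from 10.7 to 11 in unstretched tissue, from 8.79 to 9.38 with longitudinal and from 8.8 to 9.77 with transverse stretch. Fibroblast markers were lower for 5 and 6 of 10, with sums from 14.5 to 14.7, from 14.1 to 14.3 and from 13.5 to 14.1. Cardiomyocyte markers were lower for 2 of 12 in each and higher for 2 under transverse stretch. Endothelial markers were lower for 1 and 2 of 7, and their sum ran from 8.28 to 8.51 without stretch, from 8.08 to 8.27 with longitudinal and from 8.03 to 8.14 with transverse stretch, so neither stretched group overlapped the unstretched one. Smooth muscle markers were higher for 1 and 2 of 7 and lower for 1 and 2, with sums from 12.9 to 13.1, from 13.2 to 13.4 and from 13 to 13.4. The part of these cells in the changes of Lpl, Hadh and the synthetases was not tested.

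Among other genes of the pathway at 96 h, Acat1 was lower under longitudinal (-0.65 ± 0.15, adjusted p = 0.00402) and transverse stretch (-0.70 ± 0.14, adjusted p = 0.00062). Fabp4 was lower as well (-1.61 ± 0.31, adjusted p = 0.000626, and -2.13 ± 0.29, adjusted p = 3.96e-06), and Me1 was higher (0.56 ± 0.14, adjusted p = 0.00619, and 0.65 ± 0.13, adjusted p = 0.00048). The lipid droplet protein Plin2, listed as Adfp, was lower under every stretch at 24 h and 96 h: by -0.52 ± 0.11, -0.56 ± 0.11 and -0.46 ± 0.11 at 24 h and by -0.51 ± 0.11, -0.54 ± 0.12 and -0.69 ± 0.11 at 96 h (isotropic, longitudinal, transverse). The isotropic values were -0.50 ± 0.10 and -0.49 ± 0.10 with the odd pair exchanged and -0.56 ± 0.11 and -0.37 ± 0.11 with both left out, and each was still called.

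In isotropic tissue at 96 h Acsl3 was the 1 gene called, where 1.51% of all genes were called higher. It read 9.23, 9.50 and 9.67 with stretch and 8.40, 9.18 and 9.24 without, where the first unstretched value is the odd array and the groups overlapped (0.52 ± 0.13, adjusted p = 0.0233). The call was lost without unstretched replicate 1 or any 1 of the 3 stretched replicates, which left a count of 0. With the pair exchanged, Acsl3 (0.44 ± 0.12, adjusted p = 0.0134), Acsl4 (0.45 ± 0.13, adjusted p = 0.0253) and Acsl5 (0.39 ± 0.10, adjusted p = 0.00773) were higher. With both left out, Acsl5 alone was called (0.35 ± 0.11, adjusted p = 0.0467). Of all 18602 genes, 280 were higher as labelled, 710 with the pair exchanged and 361 with both left out. Hadh changed by -0.35 ± 0.21, adjusted p = 0.468, and Lpl by 0.09 ± 0.19, adjusted p = 0.906, as labelled. Macrophage markers were lower for 5 of 10 and fibroblast markers for 3 of 10, and their part was not tested.

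The stretch responses were also compared with each other. Transverse against longitudinal stretch called none of the 36 genes at 6, 24 or 96 h, against 0.0215%, 0% and 0% of all genes. At an unadjusted p under 0.05 there were 1, 5 and 0 members, against 379, 1458 and 1061 of all 18602 genes. Anisotropic against isotropic unstretched tissue called none either, against 0%, 0% and 0.0161%. Here 0, 5 and 4 members had an unadjusted p under 0.05, against 246, 582 and 1989 of all 18602 genes. At 96 h this comparison, which holds 1 odd array, also called no member with the pair exchanged or left out. Of all genes 3 were called with the pair exchanged and 0 with both left out. An F test of whether the response differed between isotropic, longitudinal and transverse stretch called none at 6, 24 and 96 h, against 0.0269%, 0% and 0% of all genes, with 0, 2 and 1 at an unadjusted p under 0.05. At 96 h that gene was Lpl (limma, adjusted p = 0.604). These tests made few calls of any kind, and a missing call does not show that the responses were alike. Unadjusted counts of the F tests, here and below, were made for members only.

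Whether the response to stretch changed between 6, 24 and 96 h was tested in the same way. In isotropic tissue no member passed (4 at an unadjusted p under 0.05), against 0.344% of all genes. Under longitudinal stretch Acsl4 alone passed (adjusted p = 0.049), against 1.75%. Its change was 0.14 ± 0.14 at 6 h, 0.06 ± 0.13 at 24 h and 0.80 ± 0.14 at 96 h. Under transverse stretch none passed (6 at an unadjusted p under 0.05), against 2.83%, and Acsl4 had an adjusted p of 0.0557 with changes of 0.06 ± 0.14, 0.20 ± 0.14 and 0.77 ± 0.13.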

How the data were processed

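Total RNA from 51 samples was hybridised to Affymetrix arrays, 3 per group and 6 at 0 h, and this number limits the precision. The deposited values are log2 signals per probe set, which the authors computed by RMA; the submitters' processing notes also list Affymetrix Expression Console and limma. Their versions and the genome build are not stated in the sources used here. Of 29214 probe sets, 20360 named 1 gene, 62 named several and 8792 none, and the probe set with the highest mean stood for each of 18602 genes. RMA evens out differences in total signal between arrays, and quantities are relative to the rest of the array.

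All 51 arrays were fitted in limma 3.58.1 (R 4.3.3) with a mean per group and a fixed term for the 6 cell harvests that the labels name, which left 30 residual degrees of freedom. There were 20 comparisons and 6 F tests, with Benjamini-Hochberg adjustment over all genes within each. The script was tested on simulated data. The harvest term is the paired design: deviations from the group means correlated at a mean r of 0.219 between arrays of the same harvest (220 pairs) and -0.0484 between harvests (995 pairs). The label numbers of replicates do not follow harvests in every group (mean r 0.0300 over 187 pairs of the same number and different harvest). The labels call the samples biological replicates but name no animals, so p-values measure the spread between these samples.

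The members, gene lists and tests were chosen with earlier results of these data known. Any member may be named, up to 12 with the largest changes per comparison, with 10 of known defining role given whether or not they pass, and at most 3 rises and 3 falls per other list. Of 197 genes in the other lists, 11 were matched by synonym. The authors' deposited table of log2 fold changes against 0 h served only to check labels: 13 of 15 columns matched differences of the labelled group means (within 0.001), and 15 did with the pair of odd arrays exchanged. For 24 h isotropic stretched and for 96 h isotropic unstretched tissue the median absolute difference was 0.0553 as labelled and 3.33e-10 with the pair exchanged. The authors' fold changes for these groups were thus those of the exchanged arrays. Abbreviated headings of that table were tied to groups by this match, after a first reading matched fewer. A heading of 96 h matched the 24 h isotropic unstretched group under either labelling, so the tie of headings to groups is not independent of the match. Promoters are RefSeq's (GRCr8). Alternatives were 8 other fits and 51 that left out 1 array. For each comparison or F test, only the fits without an array of its own groups were read. Figures were drawn with matplotlib 3.10.9.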

Additional observations from a re-analysis of the deposited data

Results flagged for a closer look

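Acsl4, the synthetase that prefers arachidonic acid, was the 1 member whose response to longitudinal stretch differed between 6, 24 and 96 h (limma F test over all genes, adjusted p = 0.049), just under the threshold of 0.05. In the 18 fits that each left out 1 array of these groups, 14 called no member. The exceptions were 24 h unstretched replicate 1 and 24 h longitudinal replicate 1, without which 1 member passed, and 6 h unstretched replicate 3 and 96 h longitudinal replicate 1, without which 2 did.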

How the results depend on the processing

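Of 108 member calls, 104 held with harvest as a random replicate block, 87 with no replicate block, 80 with the label number as the block in place of harvest, 107 with the odd arrays exchanged, 104 with both left out, 103 after repeated quantile normalization, 105 of 105 after dim genes were left out and 107 with the mean of all probe sets. None reversed, and 71 held with each array of the groups compared left out in turn. With no replicate block the members called were 4 in place of 9 from 6 to 24 h and 6 in place of 10 from 24 to 96 h in anisotropic unstretched tissue, and 0 in place of 1 for isotropic stretch at 96 h. With the block by number they were 12 (9 lower) in place of 18 (15 lower) for culture at 6 h, 5 from 6 to 24 h and 0 for isotropic stretch at 96 h. Isotropic stretch at 24 h called 6 with the pair exchanged, 4 with both left out, 1 after quantile normalization and 2 without dim genes, in place of 0. At 96 h it called 3, 1, 2 and 2 in the same order. All genes called in that order were 1513, 1198, 758 and 776 at 24 h, and 1483, 1112, 673 and 562 at 96 h. Longitudinal stretch at 24 h called 1 with the pair exchanged or left out. Transverse stretch at 24 h called 2 with the pair exchanged and 1 with both left out, after quantile normalization, without dim genes and with the mean of all probe sets. The F test of longitudinal stretch over time called 0 with no block, a random block, the block by number or quantile normalization, and 2 with the pair exchanged or left out. That of transverse stretch called 3 with the pair exchanged or left out and 1 after quantile normalization or without dim genes. The cause of these shifts was not tested, beyond the smaller number of genes (10204) without dim ones, which left 34 members.

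With 1 array left out the counts ran from 14 to 18, 24 to 27 and 23 to 25 for culture at 6, 24 and 96 h, from 5 to 9 and 4 to 10 for the steps in anisotropic tissue, from 0 to 4 and 0 to 1 for isotropic stretch at 24 and 96 h, from 3 to 9 for longitudinal stretch at 96 h, from 0 to 1 and 5 to 14 for transverse stretch at 24 and 96 h, and from 0 to 2 and 0 to 1 for the F tests of longitudinal and transverse stretch over time. All other counts stayed at 0. The number of arrays limits the precision, and 3 per group leave small changes unresolved.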

Other observations

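Storage and thioester enzymes moved beside the oxidation genes in culture. Of 11 lipid droplet and lipolysis genes, 4 were higher and 4 lower at 24 h in isotropic unstretched tissue against 0 h (limma, adjusted p under 0.05). Of all genes 20.8% were higher there and 16.1% lower. Mgll, the monoglyceride lipase, changed by -1.92 ± 0.17, adjusted p = 3.82e-11, and Plin3, a lipid droplet coat protein listed as M6prbp1, by 0.96 ± 0.14, adjusted p = 6.65e-07. Of 5 other thioesterases, 2 were higher and 3 lower, with Acot1, the cytosolic relative of Acot2, at -1.15 ± 0.12, adjusted p = 1.27e-09; the pair are close paralogs, and whether their probes tell them apart was not tested.

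Fuel genes outside the list moved too in isotropic unstretched tissue against 0 h. Of all genes 16.1% were lower and 20.8% higher there at 24 h, and 16.1% and 21.8% at 96 h. Among 16 other regulators, 9 were lower and 2 higher at 96 h, with Sirt1, a protein deacetylase, at -1.52 ± 0.16, adjusted p = 2.22e-09 and Esrrg, the oestrogen-related receptor γ, at 0.80 ± 0.13, adjusted p = 6.83e-06. None of 10 pyruvate dehydrogenase genes rose at 24 h and 6 fell, among them Pdk1 (-0.71 ± 0.10, adjusted p = 4.72e-07). Glycolysis genes were higher for 5 and lower for 7 of 18, with Aldoc, the brain aldolase, at 2.48 ± 0.35, adjusted p = 5.78e-07 and Eno3, the muscle enolase, at -2.01 ± 0.19, adjusted p = 1.98e-10. Eno3 was also lower with stretch at 96 h, with changes of -1.23 ± 0.22, -1.13 ± 0.24 and -1.45 ± 0.22 in the isotropic, longitudinal and transverse comparisons, of which the last 2 share their unstretched arrays. The isotropic value was -0.99 ± 0.21 with the odd pair exchanged and -1.13 ± 0.23 with both left out. At 96 h in culture Sirt1 was at -1.82 ± 0.13 and -1.63 ± 0.13 and Esrrg at 0.67 ± 0.12 and 0.71 ± 0.14 in that order, all still called.

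The remaining marker lists of other cells were read in the same comparisons. In isotropic unstretched tissue against 0 h at 6, 24 and 96 h, 2, 4 and 5 of 5 erythroid markers were lower. Of 7 smooth muscle markers, 2, 3 and 3 were higher and 3, 1 and 1 lower. Of 6 adipocyte markers, 1 was lower at 6 h and none was called at 24 or 96 h. Under transverse stretch at 96 h 1 adipocyte marker was higher, and longitudinal stretch called none.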
